A study of Mus musculus with 9 samples.

Results

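The 9 genes described here encode proteins of the tight junction, the seal between neighbouring epithelial cells. They are the 7 claudins *Cldn1*, *Cldn3*, *Cldn4*, *Cldn7*, *Cldn8*, *Cldn12* and *Cldn23*, together with *Ocln*, which encodes occludin, and *Tjp1*, which encodes the scaffold protein ZO-1. They were picked by name and not by a measured value, though earlier results of these data were known. All 9 had a row in a table of 17943 mouse genes. All 9 were also among the 16426 genes that were tested, which had at least 10 counts summed over the 9 mice.

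Claudins are small membrane proteins that pair across the gap between cells, and the mix of claudins in a junction sets which ions and solutes pass. Occludin and its relatives sit in the same strands, and ZO proteins bind the tails of most claudins from inside the cell and tie them to actin. In the epidermis, working tight junctions form in the granular layer below the cornified surface, and mice without *Cldn1* lose water through the skin and die soon after birth.

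Skin was taken on day 10 after the last injection from 5 controls and 4 *Supt6*-KO animals, and its RNA was sequenced. The *Supt6*-KO mice were K14-CreERT; *Supt6* fl/fl animals given tamoxifen into the peritoneum once a day, and the control mice, labelled wild type, were described as *Supt6* fl/fl animals given corn oil. SPT6, the product of *Supt6*, is a histone chaperone that travels with elongating RNA polymerase II. The K14 promoter drives Cre in basal cells of stratified epithelia, whereas the RNA came from whole skin, with dermis, glands and blood cells included. The groups differ in the Cre transgene and in tamoxifen as well as in *Supt6*, so these cannot be told apart. A difference between the groups in the tissue sampled cannot be told apart from them either. The sample labels name ear and the study's methods dorsal skin. Cartilage genes, a feature of the ear, were present in every control mouse, at 224.0 to 602.2 CPM summed over 5 genes (counts scaled to a common library size), and at 30.54 to 36.32 CPM in the *Supt6*-KO mice.

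Each library held 29627341 to 30967107 estimated counts. CPM values below are scaled with the TMM method of edgeR, which sets libraries level on the assumption that most genes change little. *Supt6* itself was at 74.5, 56.6, 63.6, 91.1 and 96.7 CPM in controls 1 to 5 and at 28.6, 24.1, 21.9 and 28.4 CPM in *Supt6*-KO mice 1 to 4. The groups did not overlap, and the log2 fold change was -1.57 (SE 0.18, adjusted p = 1.3e-05, edgeR's quasi-likelihood test), which matches the labels. It was -0.86 with the transcript length trend described below removed, and -2.26 with libraries scaled by their totals, both called lower. The count covers the whole gene, exons outside the floxed part included. A pair of libraries stood apart from their groups. *Supt6*-KO mouse 4 differed from the other *Supt6*-KO mice with a chi-square per degree of freedom of 249.4 to 415.7 over genes, against 31.79 to 72.55 among the other *Supt6*-KO mice. Control 5 differed from the other controls at 38.94 to 120.5, against 20.17 to 52.07 among those. For named genes, calls that are lost without either mouse, and values that move by over 1.5-fold, are given with the value that remains.

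The members lie on 6 chromosomes in the GRCm38 build. *Cldn4* (chr5:134945123-134946934, reverse strand) and *Cldn3* (chr5:134986214-134987476, forward strand) are neighbours, each a single exon, with 39279 bases between them. *Cldn12* lies on the same chromosome at chr5:5505015-5514976. *Cldn1* (chr16:26356645-26371839) and *Cldn8* (chr16:88560826-88563183) are on chromosome 16, *Cldn7* on chromosome 11 (69964779 to 69967886), *Cldn23* on chromosome 8 (35824709 to 35826559), *Ocln* on chromosome 13 (100496504 to 100552718) and *Tjp1* on chromosome 7 (65296165 to 65527850). Transcript length ranges from 1259 bases for *Cldn3* to 7049 bases for *Tjp1*, which has 28 exons.

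The 250 bases before the gene start are shown for *Cldn12*, the member that rose most clearly, and for the neighbours *Cldn3*, which fell, and *Cldn4*, for which no change was called. They are RefSeq sequences of GRCm38.p6, written 5′ to 3′ in the direction of the gene, at chr5:5514977-5515226 (reverse strand), chr5:134985964-134986213 (forward strand) and chr5:134946935-134947184 (reverse strand). Capitals mark the AP-1 motif TGANTCA and the GC box GGGCGG on either strand.
Cldn12: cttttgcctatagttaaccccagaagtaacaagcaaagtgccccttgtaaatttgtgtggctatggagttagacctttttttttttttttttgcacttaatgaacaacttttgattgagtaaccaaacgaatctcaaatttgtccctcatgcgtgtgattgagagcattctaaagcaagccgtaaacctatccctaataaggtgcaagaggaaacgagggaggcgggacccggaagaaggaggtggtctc
Cldn3: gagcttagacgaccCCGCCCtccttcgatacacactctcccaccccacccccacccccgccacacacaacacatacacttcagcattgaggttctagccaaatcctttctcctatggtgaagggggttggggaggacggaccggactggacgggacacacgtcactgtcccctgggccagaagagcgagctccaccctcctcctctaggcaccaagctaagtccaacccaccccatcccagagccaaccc
Cldn4: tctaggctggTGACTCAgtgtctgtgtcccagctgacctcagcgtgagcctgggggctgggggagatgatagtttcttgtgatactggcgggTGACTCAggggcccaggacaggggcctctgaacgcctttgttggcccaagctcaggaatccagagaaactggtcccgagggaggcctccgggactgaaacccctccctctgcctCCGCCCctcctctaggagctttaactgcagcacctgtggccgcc
The window of *Cldn4* holds 2 AP-1 matches, a motif found in 6.75% of the 32851 RefSeq windows of this length, and none of the other 6 members with a window had one. GC boxes, found in 32.7% of all windows, were present in at least 1 window of each of the 7 members in the table, which does not list *Cldn8* and *Cldn23*. The *Cldn12* window above has neither motif, and the 2 windows of its inner starts, which overlap it, have 1 GC box each. No member window held the GRHL motif AACCGGTT (0.116% of all windows) or its core AACNGGTT (1.79%), the letters TATAAA (12.4%) or the NF-kB motif (7.25%), and 4 of the 7 members held the E-box CANNTG (66.2%). GRHL factors are known regulators of epithelial junction genes, and these letter matches say nothing of whether a factor binds.

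The 9 genes did not move as a block. *Cldn12* rose, *Cldn7* was called higher on a few counts, *Cldn3* and *Cldn23* fell, and the other 5, which include the most abundant claudins *Cldn1* and *Cldn4* as well as *Ocln* and *Tjp1*, did not pass the test. That is 4 of 9 genes called at an adjusted p under 0.05, or 44.4%, where 71.0% of all 16426 genes tested were called. Of all genes, 34.1% were higher and 36.8% lower in *Supt6*-KO skin, and 2 of 9 members were called on each side. The members' median log2 fold change was 0.03, beside -0.072 over all genes. *Cldn12* was the only member whose *Supt6*-KO values all lay above every control, as did 28.9% of all genes, and *Cldn3* the only one whose values all lay below, as did 31.8%. The plot of member levels by mouse shows each of these values.

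**Figure D1:**
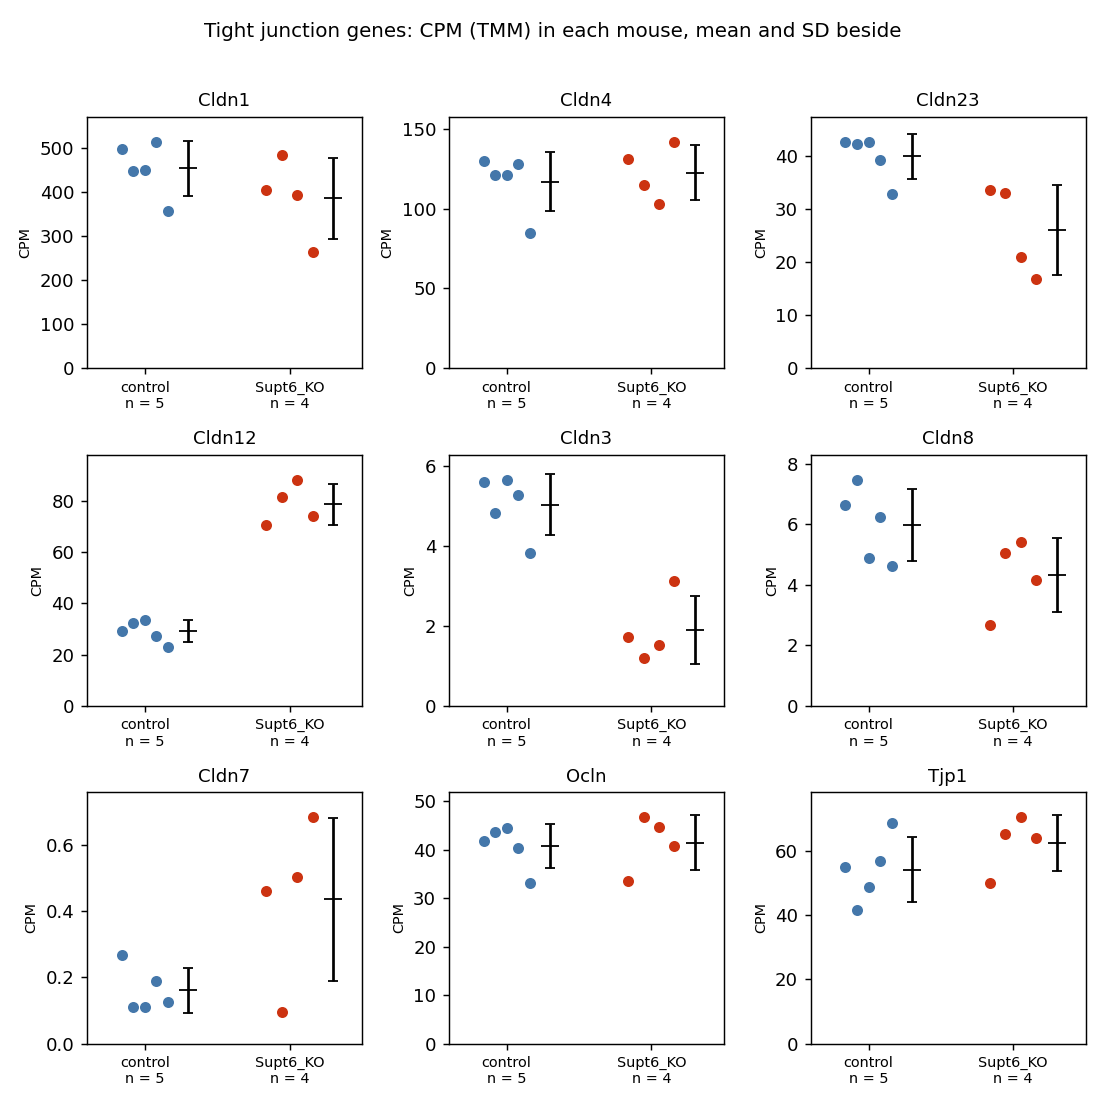
Levels of the 9 tight junction genes in each mouse, in CPM scaled by TMM on linear axes from 0 (blue, 5 controls in the order 1 to 5; red, 4 *Supt6*-KO mice in the order 1 to 4; bars beside the points, mean and SD). The groups are apart for *Cldn12* (23.1 to 33.5 against 70.5 to 88.4 CPM) and *Cldn3* (3.82 to 5.65 against 1.2 to 3.13 CPM) and overlap for the other 7 genes.

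*Cldn1*, the main sealing claudin of the epidermis, was the most abundant member. Controls 1 to 5 had 499, 449, 451, 514 and 356 CPM of it, and *Supt6*-KO mice 1 to 4 had 404, 485, 393 and 263 CPM. The groups overlapped, with *Supt6*-KO mouse 4 below all other mice. The log2 fold change of -0.23 (SE 0.18) did not pass edgeR's quasi-likelihood test (adjusted p = 0.27). *Cldn4*, a sealing claudin found in the upper epidermal layers, was at 130, 121, 121, 128 and 84.5 CPM in the controls. The *Supt6*-KO mice had 131, 115, 103 and 142 CPM, within and around that range, and the log2 fold change was 0.07 (SE 0.15, adjusted p = 0.69 by edgeR). Its lowest control was mouse 5 and its highest *Supt6*-KO mouse was mouse 4, and without either of them the estimate was -0.03 and -0.01.

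*Cldn12*, a claudin that lacks the tail motif by which most others bind ZO proteins, rose 2.70-fold. Its level was 29.4, 32.5, 33.5, 27.4 and 23.1 CPM in the controls and 70.5, 81.7, 88.4 and 74.4 CPM in the *Supt6*-KO mice. Every *Supt6*-KO mouse was above every control. The log2 fold change was 1.43 (SE 0.13, adjusted p = 3.1e-06, edgeR), and the exact two-sided permutation test of log2 CPM gave p = 0.00794, the smallest that 5 against 4 mice allow. Without each mouse in turn the log2 fold change stayed between 1.36 and 1.49.

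*Cldn3*, another sealing claudin and the neighbour of *Cldn4*, fell 2.64-fold. It was at 5.59, 4.82, 5.65, 5.27 and 3.82 CPM in the controls and at 1.71, 1.2, 1.51 and 3.13 CPM in the *Supt6*-KO mice. The groups did not overlap, although *Supt6*-KO mouse 4 and control 5 came close to each other. The log2 fold change was -1.40 (SE 0.27, adjusted p = 0.00073, edgeR), the exact permutation p was 0.00794, and it was -1.77 once *Supt6*-KO mouse 4 was left out. *Cldn23*, a claudin studied mainly in the gut lining, fell 1.53-fold. Controls had 42.5, 42.3, 42.6, 39.2 and 32.7 CPM and *Supt6*-KO mice 33.5, 33.0, 20.9 and 16.7 CPM. The groups met at control 5, which lay just below *Supt6*-KO mice 1 and 2. The log2 fold change of -0.62 (SE 0.20) had an adjusted p of 0.017 by edgeR, and without *Supt6*-KO mouse 3 it was -0.53 with an adjusted p of 0.055, above the threshold.

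*Cldn8*, known from the collecting duct of the kidney, was at 6.63, 7.47, 4.87, 6.25 and 4.63 CPM in the controls and at 2.67, 5.04, 5.40 and 4.17 CPM in the *Supt6*-KO mice. The ranges overlapped and the log2 fold change of -0.47 (SE 0.23) was not called (adjusted p = 0.091, edgeR). *Cldn7*, a claudin of simple epithelia, was close to the limit of detection. Its counts were 10, 4, 4, 7 and 5 in controls 1 to 5 and 11, 2, 11 and 19 in *Supt6*-KO mice 1 to 4, among all 29627341 or more in a library. It was called higher at a log2 fold change of 1.44 (SE 0.49, adjusted p = 0.021, edgeR), but *Supt6*-KO mouse 2 was below every control and the exact permutation p was 0.0873. Leaving out *Supt6*-KO mouse 4 gave 1.12 with an adjusted p of 0.076 by edgeR. With *Cldn7* set aside, 3 of 8 members, or 37.5%, were called.

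*Ocln* was at 41.7, 43.7, 44.5, 40.3 and 33.1 CPM in the controls and at 33.6, 46.6, 44.7 and 40.8 CPM in the *Supt6*-KO mice. These ranges all but coincided, with a log2 fold change of 0.03 (SE 0.13, adjusted p = 0.86, edgeR). *Tjp1* was at 55.1, 41.5, 48.8, 56.8 and 68.7 CPM in the controls and at 50.1, 65.2, 70.5 and 64.2 CPM in the *Supt6*-KO mice. The ranges overlapped and the log2 fold change of 0.21 (SE 0.15) was not called (adjusted p = 0.25, edgeR).

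Scaling decides several of these calls. With library totals in place of TMM the median of all genes moved to -0.759 and with scaling on 16 keratinocyte genes to 0.369, and members are best read against that shift. Relative to the median of all genes, *Cldn12* was at 1.5 under TMM, 1.49 under library totals and 1.53 under the keratinocyte scaling, and *Cldn3* at -1.33, -1.28 and -1.39. Read at face value, *Cldn1*, *Cldn4*, *Cldn8*, *Ocln* and *Tjp1* were called lower under library totals, where *Cldn7* lost its call. Under the keratinocyte scaling *Cldn4*, *Ocln* and *Tjp1* were called higher and *Cldn23* was not called. The sign of these 3 at face value thus moved with the common shift of all genes, as did that of *Cldn1* (0.26) and *Cldn8* (0.01), which had no call there. Relative to the median of all genes each kept its sign under TMM, library totals and the keratinocyte scaling, at 0.14, 0.16 and 0.13 for *Cldn4*, 0.10, 0.09 and 0.13 for *Ocln*, 0.28, 0.26 and 0.31 for *Tjp1*, -0.16, -0.20 and -0.11 for *Cldn1*, and -0.40, -0.42 and -0.36 for *Cldn8*. These 3 settings move a gene and the median together, so steady values relative to the median are largely built in. With the transcript length and gene span trends described below removed, *Cldn4* was at -0.31 and -0.66 relative to the median, while *Ocln*, *Tjp1*, *Cldn1* and *Cldn8* kept their sign. At face value *Cldn12* was called higher and *Cldn3* lower under all 21 alternatives run.

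Transcript length also moved with the groups. The slope of the log2 expression of all genes on the log10 of transcript length, each gene taken relative to its mean, was 0.756, 0.43, 0.586, 1.10 and 1.71 in controls 1 to 5. It was -1.07, -1.38, -1.39 and -0.747 in the *Supt6*-KO mice, so long transcripts were relatively low in every *Supt6*-KO library. With this trend removed, *Tjp1*, the longest member, was called higher at 1.00 (adjusted p = 4.6e-05, edgeR), and at 0.95 with the trend on the genomic span removed. The short single-exon members moved the other way, with *Cldn4* at -0.36, *Cldn8* at -0.68 and *Cldn23* at -1.04, all called lower. With the span trend removed *Cldn23* was at -1.41. *Cldn3*, the shortest member, went from -1.40 to -2.13, and to -2.27 with the span trend removed. *Cldn7* was at 0.75 and lost its call (adjusted p = 0.21, edgeR), as it did with the span trend removed (adjusted p = 0.16). The part of this trend in the results was not tested further.

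**Figure D2:**
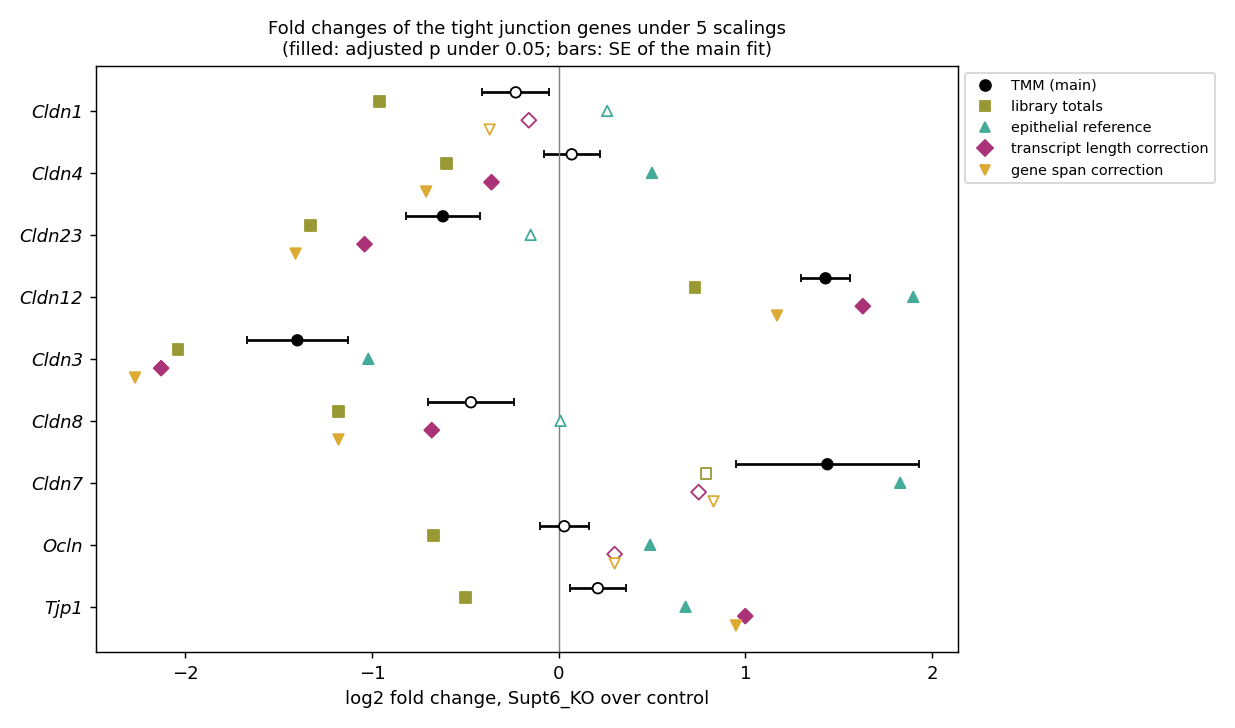
Log2 fold change of each tight junction gene, *Supt6*-KO over control, under TMM (black circles, with SE) and 4 other scalings (coloured symbols; the epithelial reference is the 16 keratinocyte genes). Filled symbols have an adjusted p under 0.05 by edgeR. All 5 estimates lie to the right of 0 for *Cldn12* and to the left for *Cldn3*, while those of *Cldn1*, *Cldn4*, *Cldn8*, *Ocln* and *Tjp1* lie on both sides. Under TMM, library totals and the epithelial reference each of these 5 keeps its sign relative to the median of all genes. This is largely built in, because these settings move the median too. With the transcript length trend removed *Cldn4* is at -0.31 relative to the median.

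The claudin mRNA pool was compared on a per-length scale, as CPM per kilobase of transcript, with no test. In controls *Cldn1* led with 139.8 ± 19.05 CPM per kb (SD, n = 5), followed by *Cldn4* at 64.45 ± 10.29, *Cldn23* at 21.58 ± 2.296, *Cldn12* at 7.774 ± 1.113, *Cldn3* at 3.995 ± 0.5976, *Cldn8* at 2.535 ± 0.5097 and *Cldn7* at 0.1205 ± 0.05087. The gap between neighbours in this order was larger than the sum of their SDs in each case. On the same scale *Ocln* was at 10.04 ± 1.125 and *Tjp1* at 7.689 ± 1.435 CPM per kb, and *Tjp1* and *Cldn12* did not differ beyond their spread. The deposited TPM values, which are also per length, gave the same order of the 7 claudins in controls, from a mean of 245.2 ± 33.52 TPM for *Cldn1* to 0.332 ± 0.1813 for *Cldn7* (SD, n = 5).

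In the *Supt6*-KO mice *Cldn12* ranked above *Cldn23*, at 20.99 ± 2.112 against 14.09 ± 4.598 CPM per kb (SD, n = 4). Its share of the summed level of the 7 claudins was 2.76% to 3.66% in controls and 7.95%, 8.53%, 10.9% and 10.3% in *Supt6*-KO mice 1 to 4. The share of *Cldn23* was 8.01% to 9.57% in controls and 4.69% to 7.66% in the *Supt6*-KO mice, and that of *Cldn3* 1.57% to 1.84% against 0.373% to 1.29%. *Cldn1* and *Cldn4* together made up most of the pool in every mouse. The split between them was narrow among controls, where *Cldn1* held 56.8% to 59.9%, and in *Supt6*-KO mouse 4 it was 41.9% *Cldn1* to 40.6% *Cldn4*, unlike the 52.6% to 58.5% *Cldn1* of *Supt6*-KO mice 1 to 3. Shares within a mouse do not depend on the library scaling, but they do carry the length trend.

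Ratios of raw counts within a mouse are also free of library scaling. *Cldn12* had 5.89, 7.23, 7.42, 5.32 and 6.50 counts per 100 counts of *Cldn1* in the controls and 17.5, 16.8, 22.5 and 28.3 in the *Supt6*-KO mice. It was the only member whose ratio to *Cldn1* did not overlap between the groups, of the 8 ratios computed. The ratio of *Cldn3* to *Cldn1* overlapped in *Supt6*-KO mouse 4, which had 1.19 counts of *Cldn3* per 100, whereas the other *Supt6*-KO mice had 0.247 to 0.424 and the controls 1.03 to 1.25. This mouse had the highest *Cldn3* and the lowest *Cldn1* level of the *Supt6*-KO mice. Against its neighbour *Cldn4*, *Cldn3* had 3.98 to 4.67 counts per 100 in controls and 1.05 to 2.19 in the *Supt6*-KO mice, with no overlap. The adjacent genes thus differed in their change, by -1.57 on the log2 scale.

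Most other tight junction genes moved, and mostly downward. Of 58 further gene names, 53 had a row and 48 were tested. Among these 30, or 62.5%, were lower and 9, or 18.8%, higher, beside 36.8% and 34.1% of all genes. Their median log2 fold change was -0.74, beside -0.072 over all genes. The number of lower genes was 36 under library totals and 19 under the keratinocyte scaling, and that of higher genes 4 and 13. The background moved as well. Of all 16426 genes, 8970 were lower and 2771 higher under library totals, and 4025 and 7259 under the keratinocyte scaling.

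Of the 12 other claudins tested, 7 were lower and 2 higher, or 58.3% and 16.7%, beside 36.8% and 34.1% of all genes. The median log2 fold change of the 12 was -1.07. These include genes that reached the count minimum through a single group, among them *Cldn22* (44 counts in controls, 6 in *Supt6*-KO mice) and *Cldn9* (16 and 2, not called). With at least 10 counts in every mouse 5 were tested, with 4 lower, 0 higher and a median of -0.70. Under the keratinocyte scaling 4 of the 12 were lower and 2 higher. Without *Supt6*-KO mouse 4 or control 2 the lower calls fell to 5. The 2 that rose, *Cldn16* and *Cldn17*, are best known from ion transport in the kidney and were absent or nearly so from control skin. *Cldn16*, which lies 91295 bases from *Cldn1*, had 0 counts in every control and 2, 9, 17 and 35 counts in *Supt6*-KO mice 1 to 4, at least 7.91-fold higher against a floor of 3 counts per library. *Cldn17*, 53847 bases from *Cldn8*, was counted 1, 0, 1, 1 and 0 times in controls 1 to 5 and 10, 28, 60 and 126 times in *Supt6*-KO mice 1 to 4. The ratio of its group totals was 147, with an exact 95% interval of 49.7 to 719 for counting error only. Counts of both were highest in *Supt6*-KO mouse 4. Without that mouse *Cldn16* was at least 5.35-fold higher, and the ratio for *Cldn17* was 91.3 (30.3 to 450.0). Both passed the minimum of 10 summed counts only through the *Supt6*-KO mice, so a gene of this kind had to differ, and their calls are no support.

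*Cldn14*, known from the inner ear, had 36 counts over the 5 controls and 0 in each *Supt6*-KO mouse, at least 1.52-fold lower. It passed the count minimum only through the controls, so its call is no support either. *Cldn19*, a claudin of Schwann cells and the kidney, fell from 5.494 ± 1.237 to 0.8583 ± 0.2284 CPM (SD, n = 5 and 4), a log2 fold change of -2.67. Markers of nerve and glia fell beside it: all 5 genes of that list were lower, and their summed level went from 399.1 to 580.6 CPM in controls to 127.7 to 140.4 CPM in *Supt6*-KO mice, with *Pmp22* the most abundant and none at 0. *Cldn5*, the claudin of blood vessels and the most abundant of this list, was at 11.32 ± 2.52 CPM in controls and 7.488 ± 1.69 in *Supt6*-KO mice, with a log2 fold change of -0.60 (adjusted p = 0.029, edgeR). Its call was lost when *Supt6*-KO mouse 3 or 4 or control 2, 4 or 5 was left out, with adjusted p-values of up to 0.063, and also with the replicate block and under the keratinocyte scaling, where it was at -0.12. Other settings gave a larger fall, at -1.33 under library totals and -1.30 with the transcript length trend removed. Of 9 endothelial genes, 7 were lower and 1 higher (4 and 1 under the keratinocyte scaling, 4 and 0 with the transcript length trend removed), with *Pecam1* the most abundant and none at 0, and their sum was 112.6, 95.58, 71.5, 120.8 and 156.6 CPM in the controls and 65.98, 67.26, 75.56 and 57.62 CPM in the *Supt6*-KO mice. In whole skin, fewer cells of a type and less RNA per cell cannot be told apart, and the part of these markers in the claudin results was not tested.

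Among 13 other membrane proteins of the junction, 8 were lower and 3 higher, or 61.5% and 23.1%, beside 36.8% and 34.1% of all genes. But under the keratinocyte scaling, which gave 4025 lower and 7259 higher of all 16426 genes, 3 of the 13 were lower and 4 higher. The lower calls fell to 6 without *Supt6*-KO mouse 1 or 4 or control 1, 2 or 5, and with the replicate block. The rises were in *Crb3*, an apical polarity protein, *F11r*, which encodes the adhesion molecule JAM-A, and *Cxadr*, a related adhesion protein. *Crb3* was at 14.9, 17.4, 17.0, 14.6 and 10.6 CPM in the controls and at 50, 55.0, 53.1 and 38.8 CPM in the *Supt6*-KO mice, a log2 fold change of 1.73 (SE 0.16, adjusted p = 3.9e-06, edgeR). Its transcript is short, at 1206 bases, and it was at 0.92 with the transcript length trend removed and at 1.02 under library totals, still called. *F11r*, the most abundant of this list, had 69.8 to 121 CPM in controls and 207 to 256 CPM in *Supt6*-KO mice. Its log2 fold change was 1.15, or 1.01 with the length trend removed and 0.48 under library totals, all called. Neither pair of groups overlapped. *Cxadr* rose by 0.71 on the log2 scale under TMM and by 1.29 with the length trend removed, and was at -0.01, with no call, under library totals.

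Transcripts of 4 genes whose proteins sit at corners where 3 cells meet were lower. *Marveld2*, which encodes tricellulin, a relative of occludin and its neighbour on chromosome 13, had a log2 fold change of -0.86 (SE 0.13, adjusted p = 0.00013, edgeR). It had 59.4 to 77.9 counts per 100 counts of *Ocln* in controls and 29.5 to 51.2 in *Supt6*-KO mice. The angulins, which recruit tricellulin, were all lower, at -1.07 for *Lsr*, -0.83 for *Ildr1* and -1.76 for *Ildr2*. The *Ildr2* transcript is long, at 8251 bases, and with the length trend removed the estimate was -0.81, still called. *Lsr* was by far the most abundant of them, at 133.1 ± 16.69 CPM in controls and 63.4 ± 12.65 in *Supt6*-KO mice. *Marveld2* and *Ildr1* were not called under the keratinocyte scaling, nor *Ildr1* without control 1 (adjusted p = 0.056, edgeR), and these corner genes were grouped, and *Marveld2* set beside *Ocln*, after their values were seen. *Clmp*, an adhesion protein, fell by 1.52 on the log2 scale.

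The scaffold and polarity proteins on the inner face of the junction gave 15 lower and 4 higher genes of 23 tested. That is 65.2% and 17.4%, beside 36.8% and 34.1% of all genes. Under the keratinocyte scaling, which gave 4025 lower and 7259 higher of all 16426 genes, 12 of the 23 were lower and 7 higher. With the gene span trend removed 9 were lower and 5 higher, and the median log2 fold change, -0.82 under TMM, was -0.29, or -0.35 with the transcript length trend removed. *Tjp1* went apart from its relative *Tjp3*. *Tjp3*, which encodes ZO-3, was at 57.4, 57.1, 54.6, 58.0 and 53.0 CPM in the controls and at 29.9, 22.5, 22.8 and 10.5 CPM in the *Supt6*-KO mice, with a log2 fold change of -1.39 (SE 0.24, adjusted p = 0.00026, edgeR). Per 100 counts of *Tjp1* there were 77.1 to 138 counts of *Tjp3* in controls and 16.3 to 59.6 in *Supt6*-KO mice, with no overlap. This pair was not fixed in advance. *Tjp1* transcripts, at 7049 bases, are longer than those of *Tjp3*, at 3024 bases. With the transcript length trend removed *Tjp3* was at -1.38 and *Tjp1* at 1.00, so the 2 genes still went apart.

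Large falls in this group were in cingulin and its relative, which link ZO proteins to actin and myosin. *Cgn* was at 72.1, 54.9, 75.3, 92.9 and 98.2 CPM in the controls and at 18.9, 19.0, 13.3 and 11.4 CPM in the *Supt6*-KO mice, a log2 fold change of -2.33 (SE 0.22, adjusted p = 3.5e-06, edgeR). *Cgnl1* went from 14.7 to 32.4 CPM in controls to 1.73 to 3.16 CPM in *Supt6*-KO mice, a log2 fold change of -3.19 (SE 0.27). The groups were far apart for both. *Amotl1* and *Mpdz*, further scaffold proteins, fell by 2.33 and 2.05 on the log2 scale. The transcripts of *Cgnl1*, *Amotl1* and *Mpdz* are long, and with the length trend removed the estimates were -2.44, -1.36 and -1.18, all still called, beside -1.84 for *Cgn*. The rises were small by comparison and lay in the PAR6 polarity proteins *Pard6a* (0.89), *Pard6b* (0.86) and *Pard6g* (0.57) and the atypical kinase *Prkci* (0.69), none of which was called under library totals, where *Pard6g* was at -0.13. *Pard6a* was at 0.12, with no call, once the length trend was removed. *Magi2* and *Magi3*, not called under TMM, were then called higher at 1.25 and 1.19. *Ybx3*, the most abundant gene of the list, was not called (log2 fold change -0.28, adjusted p = 0.15, edgeR).

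**Figure D3:**
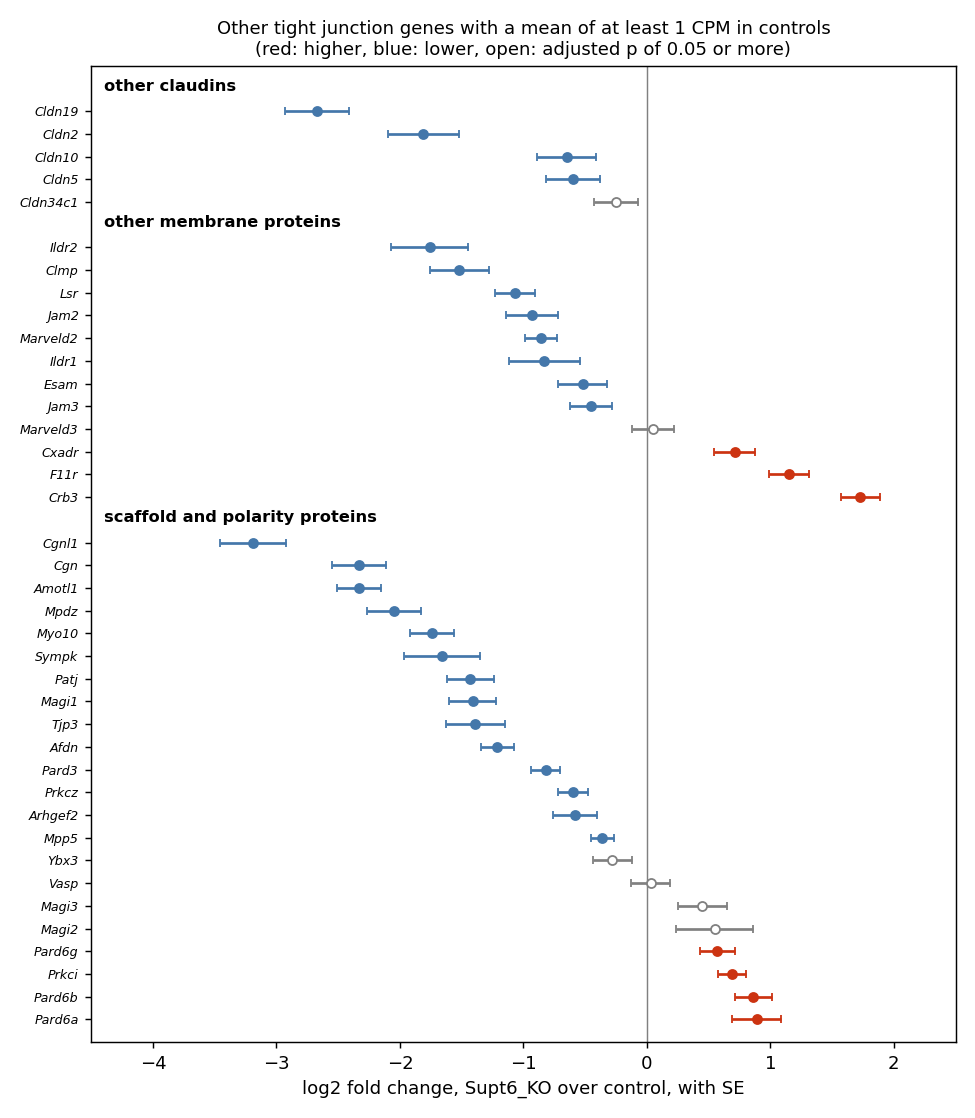
Log2 fold change with SE of 39 other tight junction genes that had a mean of at least 1 CPM in controls, grouped by role (red, higher; blue, lower; open, adjusted p of 0.05 or more by edgeR). Of these 26 were lower and 7 higher, with *Cgnl1* at -3.19 and *Crb3* at 1.73 at the ends under TMM. With the transcript length trend removed these were at -2.44 and 0.92, and *Cxadr*, at 1.29, was above *Crb3*. The filter uses the control level alone, so it leaves out genes near 0 in controls, such as *Cldn16* and *Cldn17*, and keeps genes that fell to low levels. With at least 10 counts required in every mouse, 39 genes were tested, of which 26 were lower and 7 higher.

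Genes known to act on claudins were called in both directions. Of 28 such factors, proteases and kinases, 9 were higher and 11 lower, or 32.1% and 39.3%, close to the share of all genes. Under library totals 2 were higher and 17 lower, and under the keratinocyte scaling, whose reference includes some of the 28, 11 and 5. *Elf3*, an epithelial transcription factor, rose by 3.79 on the log2 scale, with 0.838 to 1.33 CPM in controls and 7.77, 7.00, 9.24 and 36.3 CPM in *Supt6*-KO mice, and by 2.87 without *Supt6*-KO mouse 4. *Prss8*, a membrane protease needed for the epidermal barrier, rose by 1.10. *Wnk4*, a kinase that phosphorylates claudins, fell by 3.01 and *Zeb1*, a repressor of epithelial genes, by 2.38 (-1.77 with the length trend removed). *Klf4*, a factor of the epidermal barrier and the most abundant of the list, fell by 0.54 and was not called under the keratinocyte scaling.

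The adherens junction, which lies beside the tight junction, had 9 of 11 genes called lower by edgeR and 0 called higher, with a median log2 fold change of -1.0. That is 81.8% lower, beside 36.8% of all genes. Under the keratinocyte scaling 5 were lower and 1 higher, and with the transcript length trend removed 6 were lower. *Jup* (plakoglobin), the most abundant, was at 802.4 ± 136.1 CPM in controls and 244.7 ± 82.33 in *Supt6*-KO mice, and *Nectin1* fell by 1.96 on the log2 scale. *Cdh1*, which encodes E-cadherin, fell by 0.63, a call that was lost under the keratinocyte scaling and with either length trend removed.

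Marker RNAs of the cell types of skin differed beside these values. A list of 14 genes covered the granular layer, where tight junctions work, and also keratins of other layers above the basal one, such as *Krt10*. Of the 14, 9 were higher and 3 lower, or 64.3% and 21.4%, beside 34.1% and 36.8% of all genes, and none was at 0 in any mouse. Under library totals 8 were higher and 5 lower, and under the keratinocyte scaling 10 and 1. The summed level of the 14 genes was 30530, 28780, 29300, 34680 and 32110 CPM in the controls and 51140, 53380, 51720 and 24640 CPM in the *Supt6*-KO mice, with *Krt10* the most abundant, so *Supt6*-KO mouse 4 was below every control. A list of 16 keratinocyte genes, which includes basal markers such as *Krt14*, had *Perp* as the most abundant. Its sums were 18780 to 21960 CPM in controls and 31160 to 31800 in *Supt6*-KO mice. Of these 16 genes 5 were higher and 8 lower. This balance, beside 34.1% higher and 36.8% lower of all genes, was 3 and 10 under library totals and 3 and 5 with the transcript length trend removed. The keratinocyte scaling, which gave 7 and 4, levels keratinocyte genes by construction and is no separate reading of this list. Hair follicle genes fell in 9 of 10 cases, from sums of 2397 to 4005 CPM to 327.9 to 576.6 CPM, with 2 of the 10 at 0 in some library, and sebaceous gland genes in 7 of 8, from 6621 to 7918 CPM to 977.5 to 1783 CPM. Immune genes gave 6 higher and 3 lower of 10 (4 and 4 under library totals, 7 and 3 under the keratinocyte scaling), with sums of 209.4 to 277.2 CPM in controls and 2967 to 7368 CPM in *Supt6*-KO mice, most of the latter *S100a8* and *S100a9*, which keratinocytes can also make. Fibroblast genes gave 1 higher and 4 lower of 8, a balance that was 0 and 7 under library totals, 1 and 2 under the keratinocyte scaling, and 0 and 4 without *Supt6*-KO mouse 3 or 4 or control 2, 3 or 4. Of the remaining lists, skeletal muscle genes gave 5 lower of 6 (sums of 3164 to 4270 CPM in controls and 698.1 to 1183 in *Supt6*-KO mice) and adipocyte genes 4 lower of 5. The adipocyte sum, mostly *Fabp4* (log2 fold change 0.46, not called), overlapped between the groups, at 211.7 to 387.0 CPM in controls and 266.5 to 406.2 in *Supt6*-KO mice. The part of these cell types in the junction results was not tested.

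The genes most like each member over the 9 mice were sought by the root mean square distance between log2 CPM profiles, each centred on its own mean. *Cldn12* had the closest matches, *Maip1* at a distance of 0.0404 and *Taf10* at 0.0441, which rose by 1.41 and 1.43 on the log2 scale. *Cldn1* was nearest to *Sgk1* (0.0964) and *Zbed5* (0.0995), and *Cldn4* to *Akt1s1* (0.0876) and *Kdf1* (0.0962). *Ocln* was nearest to *Eci2* (0.0919) and *Tspan15* (0.11), *Tjp1* to *Ascc3* (0.115) and *Ltn1* (0.122), and *Cldn23* to *Dlk2* (0.108) and *Ttc9* (0.129). *Cldn3* and *Cldn8* had more distant matches, *Sh3bp1* at 0.147 and *Wfdc2* at 0.161. The nearest to *Cldn7*, *Ccdc125* at 0.11, reflects low counts held near 0 by the added 0.5 CPM.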

How the data were processed

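Skin RNA of 5 control and 4 *Supt6*-KO mice was sequenced on the DNBSEQ platform. Paired reads were aligned by the authors to mm10 (Bowtie2, v2.3.4.3). Gene-level estimated counts, made with RSEM (v1.3.1), were deposited, of which 9.0% are not whole. The submitters' processing notes also name HISAT and DESeq2 (1.4.5). The authors also deposited TPM for *Supt6*-KO mouse 4 and the controls, and only the control values were used, as a description. The annotation release is not given in the sources used here. Of 17943 rows, 17519 were matched to RefSeq genes by identifier, 331 by symbol and 67 by an older symbol, and 26 were not matched.

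Counts were rounded, genes with a sum under 10 counts were left out, and groups were compared with the quasi-likelihood test of edgeR 4.0.16 in R 4.3.3, with TMM scaling and no covariates. P-values were adjusted by Benjamini-Hochberg over all 16426 genes, and calls used 0.05. The SE is the absolute log2 fold change over the square root of F. Exact permutation tests used log2 of CPM plus 0.5. Replicates are separate mice by their titles. Depth was 29627341 to 30967107 counts, and intervals and floors (3 counts) cover counting error only. On simulated counts for *Supt6*-KO over control, edgeR recovered 62% of 100 genes changed 2-fold and 97% of 100 changed 4-fold, with 3 false calls among 16315 genes. Only 100 genes of each size were changed there, whereas 71.0% of the 16426 genes tested were called in the mice. The rate of false calls where most genes differ was not tested.

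The members and all lists were chosen with earlier results of these data known. All members were named. From each of the 5 other junction lists the 2 largest rises and falls among called genes and the most abundant gene were named. Some further genes were named by role with no fixed rule, and many that changed at least 2-fold were not named. The 2 most similar genes were sought among those with at least 1 CPM on average. As alternatives, DESeq2 1.42.0, scaling on 16 keratinocyte genes, upper-quartile factors, library totals, other count filters, removal of the 50 most abundant genes, corrections for transcript length and gene span, a replicate block, unrounded counts and leaving out each mouse were run. Tables were made in Python 3.11.15 (pandas 2.3.3, scipy 1.17.1) and plots with matplotlib 3.10.9. The results for 2 genes of the lists are not reported here, though they count in the totals of their lists.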

Additional observations from a re-analysis of the deposited data

Results flagged for a closer look

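In 42 groups of 4 or 5 values, 3 had a lowest or highest value far from the rest by Dixon's test, where chance gives about 2.1. All 3 were the low value of control 5. Its *Cldn4* level was 84.5 CPM, beside a control median of 121, and its summed level of the 7 claudins was 185 CPM per kb, beside a median of 244. Its *Cldn4* share of that sum was 25.1%, beside a median of 27.2%. The same mouse had the steepest length trend of the controls (1.71), and the cause was not tested.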

How the results depend on the processing

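*Cldn12* was called higher and *Cldn3* lower in all 21 alternatives, with log2 fold changes of 0.73 to 1.90 and -2.27 to -1.02, and *Supt6* was called lower in all (-2.26 to -0.86).

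With library totals 8 members were called, 1 higher and 7 lower. *Cldn1* was at -0.96, *Cldn4* at -0.60, *Cldn8* at -1.18, *Cldn23* at -1.33, *Ocln* at -0.67 and *Tjp1* at -0.50, while *Cldn7* was at 0.79 and not called. Of other tight junction genes 4 were higher, and of all genes 2771. With scaling on 16 keratinocyte genes 5 members were higher and 1 lower, with *Cldn1* at 0.26, *Cldn4* at 0.50, *Cldn8* at 0.01, *Cldn23* at -0.15, *Ocln* at 0.49 and *Tjp1* at 0.68. Then 19 other tight junction genes and 4025 of all genes were lower. With the transcript length trend removed 4 members were lower, with *Cldn4* at -0.36, *Cldn7* at 0.75 (not called), *Cldn8* at -0.68, *Cldn23* at -1.04 and *Tjp1* at 1.00. With the span trend removed 4 were lower, with *Cldn4* at -0.71, *Cldn7* at 0.83 (not called), *Cldn8* at -1.18, *Cldn23* at -1.41 and *Tjp1* at 0.95. Upper-quartile factors put *Cldn4* at -0.01 and *Ocln* at -0.05. With at least 10 counts in every mouse *Cldn7* was not tested, which left 1 member higher, and *Ocln* was at -0.02.

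Without each mouse in turn 3 to 4 members were called, 1 to 2 in each direction. *Cldn4* then ranged from -0.03 to 0.14, *Cldn7* from 1.12 to 1.74, *Cldn23* (not called without *Supt6*-KO mouse 3) from -0.77 to -0.45 and *Ocln* from -0.05 to 0.12. Leaving out control 5 and *Supt6*-KO mouse 4 together, an alternative chosen after seeing the data, put *Cldn4* at -0.11, *Cldn7* at 1.05 and *Ocln* at -0.03, with 1 member higher.

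Same-numbered mice correlated at 0.0133 to 0.234 in their deviations, and 1 of 4 *Supt6*-KO mice was nearest to the control of its own number, so the numbers were not taken to pair the mice. The replicate block put *Cldn4* at -0.04 and *Ocln* at -0.05 and changed no call of a member. Depth limits *Cldn7*, *Cldn14*, *Cldn16* and *Cldn17*, where a few counts decide the value.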
